A study of Homo sapiens with 9 samples.

Results

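Transcripts of 10 sialyltransferase genes were examined in MDA-MB-231 breast cancer cells and in a pair of metastatic sub-populations derived from them. The 10 genes were chosen by symbol among the 58884 genes of the count table. They comprise ST6GALNAC5 and its relatives ST6GALNAC2, ST6GALNAC3, ST6GALNAC4 and ST6GALNAC6, the N-glycan enzyme ST6GAL1, and ST3GAL1, ST3GAL2, ST3GAL4 and ST3GAL5. The list was drawn up by gene name, with earlier results of these data known. RNA-seq was done on the MDA-MB-231 line (Par), a human breast cancer line of the claudin-low type, on LM2, a variant that colonizes the lung of mice, and on BrM2, a variant that colonizes the brain. All were grown alone in culture for 3 days, with no treatment named in the labels, and each contributed 3 libraries harvested at different passages. Each line is a single cell population, so the p-values describe the spread between passages and not the spread between tumors.

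Sialyltransferases are Golgi enzymes that move sialic acid from the activated sugar CMP-sialic acid onto the ends of glycans. The family names give the acceptor: ST3GAL and ST6GAL enzymes act on galactose, and ST6GALNAC enzymes act on N-acetylgalactosamine of O-glycans or of gangliosides, the sialylated glycolipids that are abundant in brain. The sialic acid caps these enzymes add are read by lectins on leukocytes and endothelium. ST6GALNAC5 is normally expressed mainly in brain and is known from earlier work for its part in the passage of breast cancer cells across the blood-brain barrier.

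Libraries held 14371858 to 24511786 counted reads, with the lowest total in BrM2 replicate 1, and 13055 genes passed the filter on low counts. The tumor cell markers VIM, CD44, KRT18 and KRT8 were present in every library at a summed 2041 to 4305 CPM (read counts scaled to a common library size, with TMM factors), whereas all 3 lung epithelium markers were at or under 3 counts in every library. Leukocyte markers summed to 2.40 to 4.62 CPM in Par, 1.53 to 3.08 CPM in LM2 and 1.19 to 3.25 CPM in BrM2. Those of endothelium summed to 3.10 to 7.39, 2.45 to 2.93 and 3.35 to 4.12 CPM. Of the 3 glia markers, OLIG2 had no count, which leaves up to 0.140, 0.129 and 0.166 CPM (3 counts per library) in Par, LM2 and BrM2, while MBP and GFAP brought the list to 175 to 193 CPM in Par, 110 to 120 CPM in LM2 and 143 to 155 CPM in BrM2. The 8 luminal epithelium markers summed to 182 to 273 CPM in Par, 84.4 to 145 CPM in LM2 and 91.9 to 172 CPM in BrM2, and among them CLDN4 had 95.3 ± 19.6, 5.84 ± 1.69 and 20.0 ± 11.7 CPM. Fibroblast markers summed to 55.8 to 73.3 CPM in Par, 45.5 to 71.2 CPM in LM2 and 10.8 to 21.8 CPM in BrM2, with 2 of 5 at or under 3 counts in BrM2. Their members did not move together, as from Par to LM2 the mean of COL1A1 went from 6.84 to 43.5 CPM and that of COL1A2 from 26.8 to 5.55 CPM. The part of these markers in the results was not tested. Replicate 1 stood apart from replicates 2 and 3 in every line. With the replicate number in the model as a block, 9473 of the 13055 genes (72.6%) differed between replicate 1 and the others, and this difference followed transcript GC content across 12989 genes (Spearman's rho 0.82, across genes, which are not independent). Libraries of the same number deviated together, but replicates 2 and 3 of different lines did so as well. Pairing by number is thus not shown for replicates 2 and 3. Values from the model with the block are given beside those without it for each of the 10 genes where they change a call.

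ST6GALNAC5, ST6GALNAC3 and ST6GAL1 had higher values in BrM2 than in Par, and the 300-base windows around their RefSeq gene starts are shown for orientation (GRCh38.p14, plus strand for all). They were picked after the expression values were seen. Capitals mark the letters GGGCGG (the GC box) or CCAAT (the CAAT box), on both strands. Also searched on both strands were the TATA box TATAAA, the AP-1 site TGANTCA and the Ets core CCGGAA.
ST6GALNAC5, chr1:76867230-76867529: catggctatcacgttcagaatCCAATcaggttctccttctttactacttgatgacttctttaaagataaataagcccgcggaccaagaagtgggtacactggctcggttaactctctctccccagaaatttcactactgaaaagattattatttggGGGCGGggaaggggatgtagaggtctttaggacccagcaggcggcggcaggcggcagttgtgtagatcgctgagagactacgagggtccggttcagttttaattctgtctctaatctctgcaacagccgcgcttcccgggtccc
ST6GALNAC3, chr1:76074496-76074795: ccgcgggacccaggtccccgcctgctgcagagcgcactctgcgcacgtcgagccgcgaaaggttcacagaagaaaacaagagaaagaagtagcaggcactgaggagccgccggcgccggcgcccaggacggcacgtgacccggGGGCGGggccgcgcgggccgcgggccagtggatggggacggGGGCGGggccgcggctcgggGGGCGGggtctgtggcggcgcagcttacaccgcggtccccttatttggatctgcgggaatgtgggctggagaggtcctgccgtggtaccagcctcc
ST6GAL1, chr3:186930276-186930575: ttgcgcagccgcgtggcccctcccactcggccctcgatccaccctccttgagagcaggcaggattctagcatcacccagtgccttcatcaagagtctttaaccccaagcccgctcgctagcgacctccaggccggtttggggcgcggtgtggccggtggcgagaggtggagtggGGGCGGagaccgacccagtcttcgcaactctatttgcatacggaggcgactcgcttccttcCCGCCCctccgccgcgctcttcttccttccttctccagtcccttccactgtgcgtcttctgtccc
The GGGCGG letters occurred 1 time in the ST6GALNAC5 window, 3 times in that of ST6GALNAC3 and 2 times in that of ST6GAL1, and 44.9% of 34943 human promoter windows of the same length hold them. CCAAT was present 1 time, in the ST6GALNAC5 window, and in 34.6% of all windows. The other 3 motifs, present in 11.6% (TATAAA), 7.72% (TGANTCA) and 17.2% (CCGGAA) of all windows, had no match in these letters. The ST6GALNAC5 window had 14 CpG dinucleotides, the median over all windows, and a GC content below their median of 58.7%. That of ST6GALNAC3 was richer, with 72.0% GC and 35 CpG, and that of ST6GAL1 had 64.0% GC and 24 CpG.

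Among the 10 members, and scaled by exon length, ST3GAL4, ST3GAL1 and ST6GALNAC4 held most of the transcript in all 3 lines. Some shares differed between lines. The other 10 genes of the family, described further below, are not in the sum used here. Dividing CPM by the summed exon length of each gene, the 10 members together reached 34.3 ± 8.93 CPM per kb in Par, 29.3 ± 11.6 in LM2 and 32.7 ± 7.86 in BrM2 (mean ± SD, n = 3 for this and all later means). ST3GAL4, ST3GAL1 and ST6GALNAC4 held 83.1% ± 2.39 of that sum in Par, 81.5% ± 4.04 in LM2 and 77.4% ± 4.07 in BrM2. The length is that of all annotated exons rather than of the transcript expressed, so shares and places between genes depend on it. In mean CPM, ST3GAL2 (34.9 in Par, 21.4 in LM2 and 27.0 in BrM2) exceeded ST6GALNAC4 (18.7, 14.8 and 14.4). The share of ST3GAL4 was 38.5% ± 5.89 in Par and 30.8% ± 2.40 in BrM2, without overlap between the libraries of these lines. That of ST3GAL1 was 24.1% ± 4.19 in Par and 30.8% ± 3.36 in BrM2, with overlap (20.8% to 28.8% and 27.7% to 34.4%). Differences in shares were not tested. ST6GAL1 and ST6GALNAC5 together held 1.72% ± 1.07 in Par, 5.84% ± 1.85 in LM2 and 11.1% ± 3.15 in BrM2. Library values of this share ran from 0.626% to 2.76% in Par, from 3.77% to 7.34% in LM2 and from 7.55% to 13.5% in BrM2, so the lines did not overlap.

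**Figure D1:**
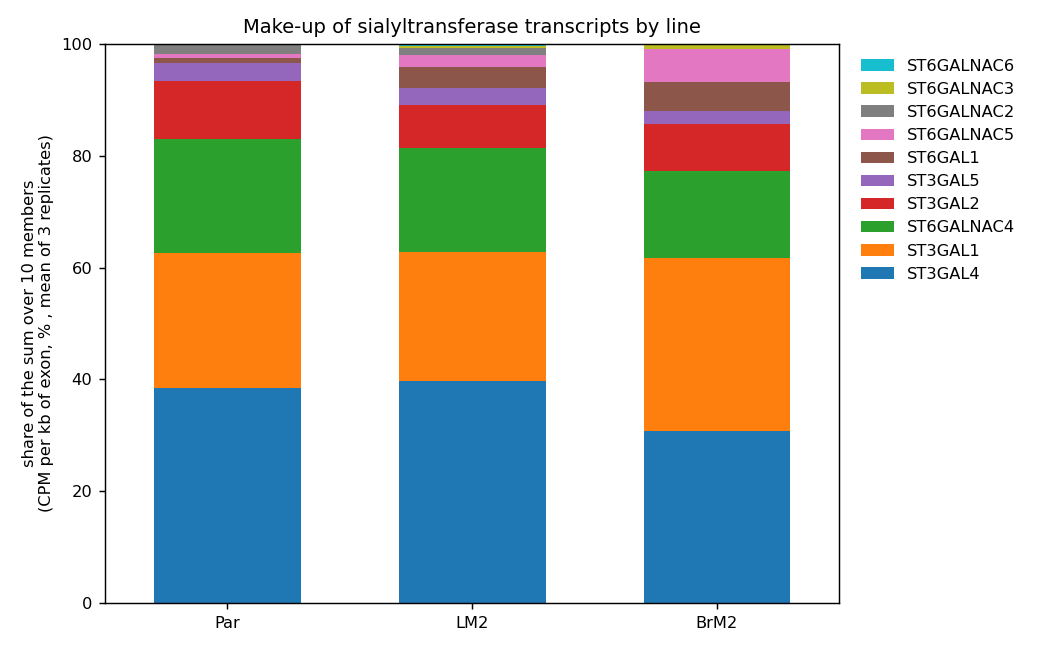
Stacked bars give each gene's share, in percent and as the mean of 3 replicates, of the summed CPM per kb of exon over the 10 sialyltransferase genes in Par, LM2 and BrM2. The combined share of ST6GAL1 and ST6GALNAC5 was 1.72% in Par and 11.1% in BrM2, and ST3GAL4 and ST3GAL1 were the 2 largest segments in each line.

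The order of levels per kb in Par was ST3GAL4, ST3GAL1, ST6GALNAC4, ST3GAL2, ST3GAL5, ST6GALNAC2, ST6GAL1, ST6GALNAC5, ST6GALNAC6 and ST6GALNAC3. Neighbours whose library ranges overlapped in Par were ST3GAL1 and ST6GALNAC4, ST6GALNAC4 and ST3GAL2, ST6GAL1 and ST6GALNAC5, and ST6GALNAC6 and ST6GALNAC3. ST6GALNAC5 stood at place 8 in Par, 7 in LM2 and 5 in BrM2, with 0.238 ± 0.139, 0.514 ± 0.122 and 1.79 ± 0.308 CPM per kb. In BrM2 its range overlapped those of its neighbours ST3GAL2 and ST6GAL1. ST6GALNAC2 went from place 6 in Par to place 8 in LM2 and the last place in BrM2. For ST6GALNAC2 and ST6GALNAC6 these levels are uncertain, since 39.8% and 47.0% of their exon bases are shared with another annotated gene on the same strand.

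ST6GALNAC5, which adds sialic acid to gangliosides, was the member with the largest fold difference between BrM2 and Par among the 7 members that passed the filter. The gene lies at chr1:76867480-77067546. Its level was 0.473, 1.94 and 1.93 CPM in Par replicates 1 to 3, from 9, 40 and 49 counts. LM2 had 2.29, 3.35 and 3.72 CPM from 46, 82 and 97 counts, and BrM2 had 9.08, 12.8 and 10.7 CPM from 123, 290 and 224 counts. No library of one line overlapped another line, and replicate 1 was the lowest of each line. On the log2 scale ST6GALNAC5 rose by 2.90 ± 0.47 (SE) in BrM2 against Par, with an adjusted p of 0.0039 (quasi-likelihood test of edgeR, Benjamini-Hochberg adjustment over all 13055 genes). The change in LM2 was 1.10 ± 0.46 with an adjusted p of 0.21, which became 0.011 with the replicate block (1.13 ± 0.29). BrM2 exceeded LM2 by 1.80 ± 0.44 with an adjusted p of 0.040, and by 1.82 ± 0.25 with an adjusted p of 3.3e-04 with the block. Without the block this last call held in only 1 of the 9 fits that leave out a library, the one without Par replicate 1, and adjusted p ranged up to 0.13 (without LM2 replicate 2). Within libraries of the same number, BrM2 exceeded LM2 by 1.95, 1.91 and 1.51 in log2 CPM (prior count 2).

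ST6GALNAC3, a relative that acts on gangliosides and O-glycans, lies next to ST6GALNAC5 on chromosome 1, at chr1:76074746-76637339. The genes are 230140 bases apart, and the 3 annotated genes between them, TPI1P1, RNU6-161P and LINC02567, are not protein coding. ST6GALNAC3 was counted with 3, 1 and 2 reads in Par, 2, 18 and 24 in LM2 and 5, 41 and 40 in BrM2. In Par it was thus at or under 3 counts in every library, and LM2 replicate 1 overlapped Par, whereas all BrM2 libraries lay above Par. The mean of BrM2 (1.37 ± 0.864 CPM) was 9.74 times the 3-count floor of Par, taken as the mean over its libraries. That of LM2 (0.584 ± 0.43 CPM) was 4.17 times this floor. As Par replicate 1 held 3 reads, these ratios are not lower limits of the fold difference. ST6GALNAC3 did not pass the filter, so its test comes from the fit without a filter on 34056 genes. Against Par it gave 3.84 ± 0.71 on the log2 scale for BrM2 (edgeR adjusted p 2.7e-04) and 2.61 ± 0.75 for LM2 (adjusted p 0.035). The 95% intervals were 2.39 to 5.29 for BrM2 and 1.09 to 4.13 for LM2. The LM2 call was lost in DESeq2 (adjusted p 0.062), in limma-voom (0.35) and in edgeR without Par replicate 2 (0.054) or LM2 replicate 3 (0.078). BrM2 against LM2 gave 1.23 ± 0.55 with an adjusted p of 0.31, or 0.0061 with the replicate block, and without BrM2 replicate 1 the adjusted p was 0.020. Replicate 1 had the fewest ST6GALNAC3 reads in both LM2 and BrM2, and the transcript has the lowest GC content of the members, 37.1%. The part of the replicate difference in these values was not tested.

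ST6GALNAC2, an enzyme of O-glycans, went the other way. Counts were 28, 37 and 35 in Par, 38, 22 and 19 in LM2 and 1, 3 and 3 in BrM2. All BrM2 libraries were thus at or under 3 counts and below every library of the other lines, while Par and LM2 overlapped. In CPM the means were 1.55 ± 0.217 in Par and 1.17 ± 0.626 in LM2, 9.32 and 7.06 times the BrM2 floor of 3 counts. BrM2 replicates 2 and 3 held 3 reads, so these ratios are not lower limits of the fold difference. In the fit without a filter ST6GALNAC2 fell in BrM2 against Par (-3.60 ± 0.58 on the log2 scale, edgeR adjusted p 3.1e-05). It also fell against LM2 (-3.21 ± 0.59, adjusted p 3.2e-04). The 95% intervals were -4.78 to -2.43 against Par and -4.40 to -2.02 against LM2. Both calls held in all 9 fits that leave out a library. LM2 differed from Par by -0.39 ± 0.43 with an adjusted p of 0.72. The gene lies at chr17:76565377-76585860, and besides the gene on its own strand another on the opposite strand covers 19.3% of its exon bases. These neighbours, which have an identifier but no symbol, had 2 to 10 and 0 to 3 counts per library.

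ST6GALNAC4 and ST6GALNAC6 are neighbours on chromosome 9, at chr9:127907886-127917041 and chr9:127885321-127906616, with 1269 bases between them. Neither passed the test in any comparison without the block. ST6GALNAC4, which adds a further sialic acid to O-glycans, had 23.1, 21.4 and 11.6 CPM in Par, 23.1, 11.8 and 9.54 CPM in LM2 and 24.6, 6.27 and 12.4 CPM in BrM2. The lines overlapped fully, and replicate 1 was the highest library of each line. Its log2 differences were -0.33 ± 0.53 for LM2 and -0.38 ± 0.53 for BrM2 against Par and -0.04 ± 0.53 for BrM2 against LM2, and the 95% intervals reached from -1.57 to 1.15 over the 3. ST6GALNAC6, which acts on gangliosides, was at 0.105 to 0.236 CPM in Par, 0.245 to 0.843 CPM in LM2 and 0.148 to 0.335 CPM in BrM2. In LM2 the difference from Par was 1.61 ± 0.63 (adjusted p 0.20 in edgeR without a filter) and passed only with the block (1.59 ± 0.57, adjusted p 0.036).

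**Figure D2:**
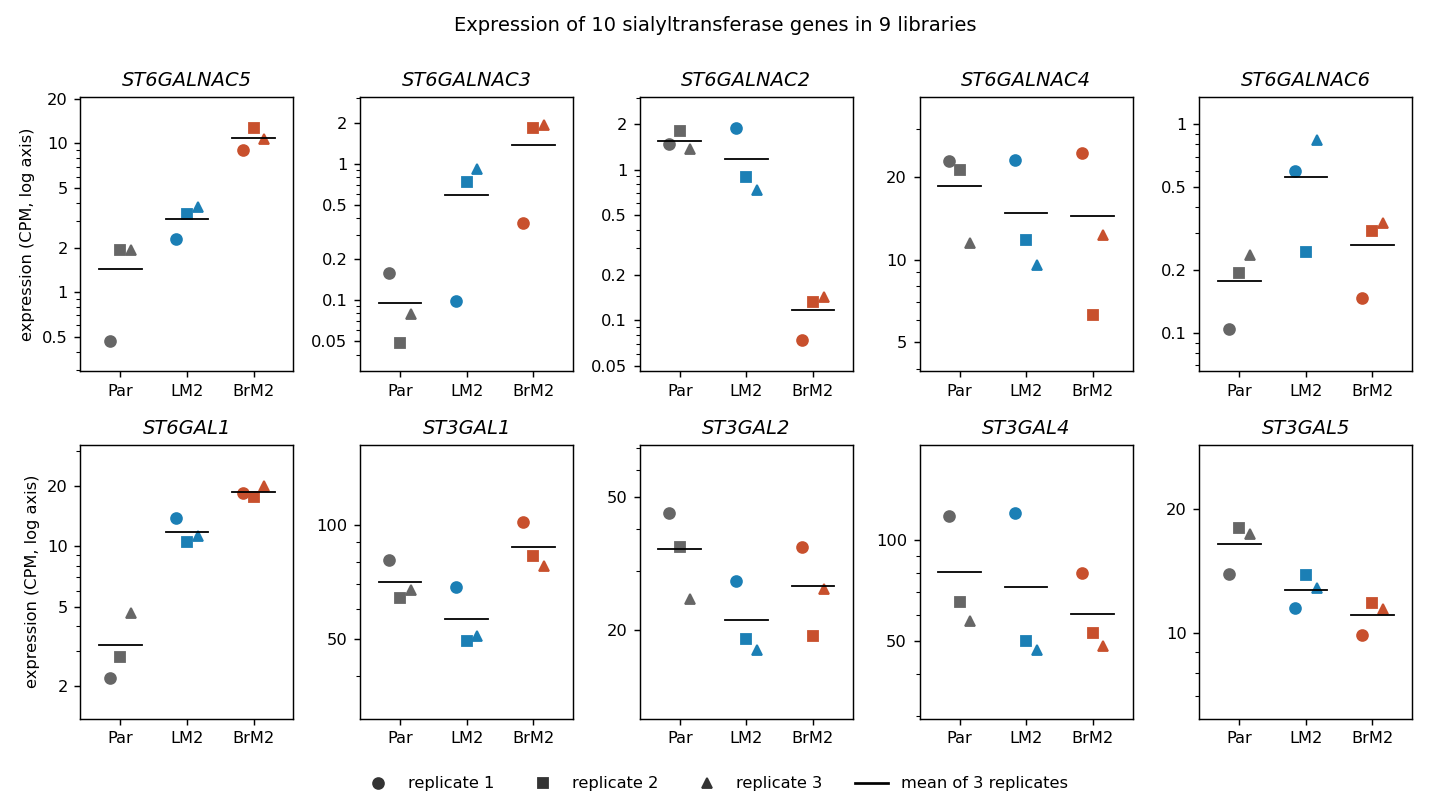
Each panel plots 1 gene, with expression in CPM on a log axis for the 9 libraries by line. Symbols mark replicates 1 to 3 and lines the mean. ST6GALNAC5 and ST6GAL1 had no overlap between any lines, ST6GALNAC2 was at 0.0738 to 0.144 CPM in BrM2, and replicate 1 was highest for ST6GALNAC4 in BrM2 (24.6 CPM).

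ST6GAL1, the main enzyme that caps galactose of N-glycans with sialic acid in the linkage that gives it its name, was higher in both metastatic lines. At chr3:186930526-187078553, it had 2.21, 2.81 and 4.64 CPM in Par, 13.8, 10.4 and 11.2 CPM in LM2 and 18.5, 17.7 and 20.1 CPM in BrM2. Each library of LM2 lay above all of Par, and each of BrM2 above all of LM2. ST6GAL1 rose by 1.87 ± 0.29 in LM2 (edgeR adjusted p 0.0046) and by 2.53 ± 0.30 in BrM2 (adjusted p 7.5e-04) against Par on the log2 scale, and both calls held in all 9 fits that leave out a library. Without the block, both were lost when replicate 2 of every line was left out. The LM2 call was also lost without replicate 3. Over all alternative fits (edgeR, DESeq2 and limma-voom) adjusted p ranged up to 0.21 for LM2 and 0.083 for BrM2. Between BrM2 and LM2 the difference was 0.67 ± 0.28 with an adjusted p of 0.21, which passed with the replicate block (0.67 ± 0.21, adjusted p 0.028). Replicate 1 differed from the others by -0.06 ± 0.19 on the log2 scale (adjusted p 0.80).

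The ST3GAL genes had smaller fold differences, and none passed the test without the replicate block. ST3GAL1, at chr8:133454848-133571887, caps O-glycans and was counted at 80.7, 64.3 and 67.3 CPM in Par, 68.6, 49.4 and 51.1 CPM in LM2 and 102, 82.8 and 77.8 CPM in BrM2. BrM2 lay above LM2 in every library, and Par overlapped both. Within libraries of the same number, LM2 was lower than Par by 0.24, 0.38 and 0.40 in log2 CPM and BrM2 higher than Par by 0.33, 0.36 and 0.21. With the block ST3GAL1 was lower in LM2 than in Par (-0.34 ± 0.11, adjusted p 0.033), higher in BrM2 than in Par (0.30 ± 0.11, adjusted p 0.043) and higher in BrM2 than in LM2 (0.64 ± 0.11, adjusted p 0.0011). Without the block the adjusted p values were 0.45, 0.44 and 0.11, and only the last difference passed in a fit with 1 library left out, without LM2 replicate 1 (adjusted p 0.045).

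ST3GAL5 makes the simplest ganglioside from lactosylceramide and so opens the ganglioside pathway on which ST6GALNAC5 acts. It lies at chr2:85837120-85889034 and had 13.9, 18.0 and 17.4 CPM in Par, 11.5, 13.8 and 12.8 CPM in LM2 and 9.89, 11.8 and 11.5 CPM in BrM2. Both metastatic lines lay below Par without overlap, and LM2 and BrM2 overlapped. In BrM2 the log2 difference from Par was -0.57 ± 0.20 (edgeR adjusted p 0.10), which passed with the block (-0.57 ± 0.14, adjusted p 0.0064) and in DESeq2 without it (adjusted p 0.020). In LM2 it was -0.37 ± 0.20 (adjusted p 0.36, or 0.056 with the block). Within libraries of the same number, ST3GAL5 was lower in BrM2 than in Par by 0.48, 0.60 and 0.60 in log2 CPM.

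ST3GAL2, which caps O-glycans and gangliosides, lies at chr16:70375977-70439100 and had 44.7, 35.3 and 24.7 CPM in Par, 28.02, 18.7 and 17.4 CPM in LM2 and 35.4, 19.2 and 26.5 CPM in BrM2. The ranges overlapped, but within a number LM2 was lower than Par by 0.67, 0.91 and 0.50 in log2 CPM. The LM2 difference of -0.71 ± 0.32 had an adjusted p of 0.26, and of 0.0082 with the block (-0.71 ± 0.17). ST3GAL4, an enzyme of N-glycans and of sialyl Lewis antigens at chr11:126355686-126414638, had 119, 65.3 and 57.6 CPM in Par, 121, 50.1 and 47.0 CPM in LM2 and 79.7, 52.8 and 48.5 CPM in BrM2. Here replicate 1 differed from the others more than any lines differed (0.98 ± 0.12 on the log2 scale, adjusted p 5.4e-05), and no comparison of lines passed in either fit. The 95% interval without the block was -1.12 to 0.83 for LM2 and -1.39 to 0.56 for BrM2 against Par.

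Over the members that passed the filter, 1 of 7 was called in LM2 against Par, where 8.69% of all 13055 genes were called. In BrM2 against Par 2 of 7 were called (13.3% of all genes), and in BrM2 against LM2 1 of 7 (8.1%). With the replicate block the counts were 4 of 7 in LM2 against Par (34.5% of all genes), 4 of 7 in BrM2 against Par (42.7%) and 3 of 7 in BrM2 against LM2 (37.5%). In each comparison 3 of the 7 had no overlap between lines, against 25.2%, 31.3% and 23.1% of all genes. Such a split gives the smallest exact permutation p that 3 against 3 libraries allow, 0.1 (two-sided). The median log2 difference of the 7 was -0.33 for LM2 against Par, -0.37 for BrM2 against Par and 0.34 for BrM2 against LM2, beside 0.01, -0.02 and -0.03 over all genes. Without the filter, 2, 4 and 2 of all 10 members were called in these comparisons, where 4.4%, 6.36% and 4.25% of 34056 genes were. With the block and no filter, 5, 6 and 5 of the 10 were called, beside 15.5%, 19% and 16.7% of those genes.

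**Figure D3:**
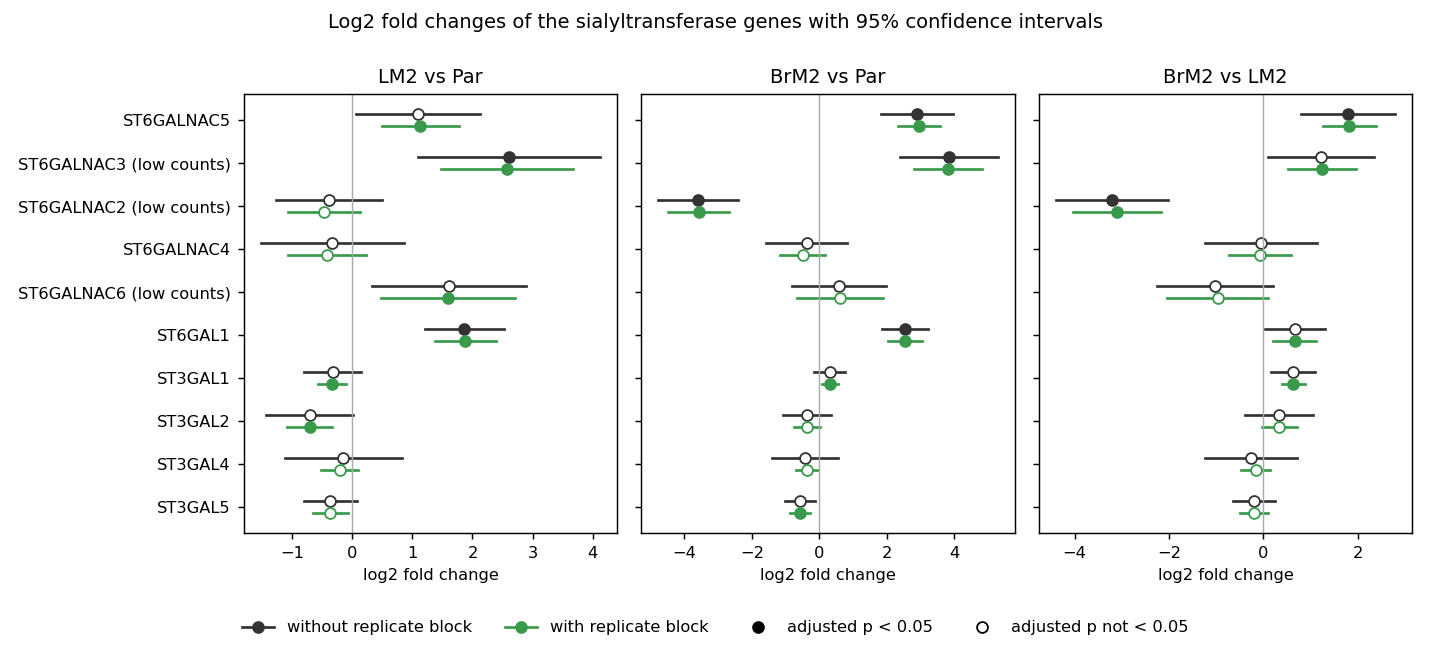
Points give the log2 fold change of each gene in the 3 comparisons and bars its 95% confidence interval, in black without and in green with the replicate block. Filled points have an adjusted p under 0.05. ST6GALNAC5 (2.90) and ST6GAL1 (2.53) were filled in both fits for BrM2 against Par, and ST3GAL1 in the green fit alone. Genes marked as low counts are from the fits without a filter.

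**Figure D4:**
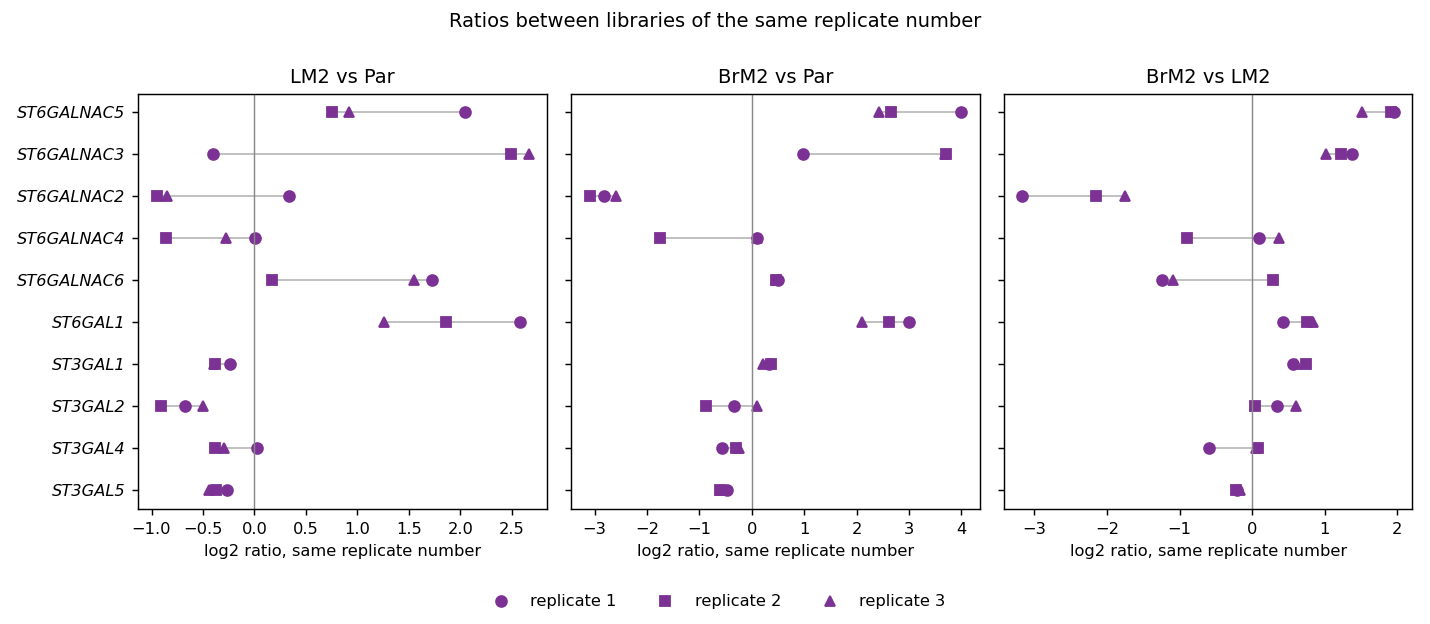
Points give the log2 ratio of CPM between libraries of the same replicate number for each gene and comparison, with a symbol for each number and a grey line over their range. ST6GALNAC5 ran from 2.43 to 3.997 for BrM2 against Par, ST3GAL5 was below 0 in all pairs, and ST6GALNAC4 lay on both sides of 0.

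The glycans that these enzymes cap are built by other enzymes, which were described by 7 lists of 52 genes in all, of which 34 passed the filter. In LM2 against Par 3 of the 34 rose and 1 fell (8.69% of all genes were called), in BrM2 against Par 4 rose and 5 fell (13.3%), and in BrM2 against LM2 1 rose (8.1%). With the replicate block 4 were higher and 13 lower in LM2 against Par (34.5% of all genes called), 6 higher and 12 lower in BrM2 against Par (42.7%), and 6 higher and 7 lower in BrM2 against LM2 (37.5%). Their median log2 difference was -0.21, -0.16 and -0.04 without the block. Leaving out 1 library gave 2 calls without Par replicate 2, Par replicate 3 or LM2 replicate 2 in LM2 against Par, and 5 without Par replicate 2 or 3 in BrM2 against Par. In BrM2 against LM2 it gave 3 without LM2 replicate 1, and none by edgeR without LM2 replicate 2 or BrM2 replicate 3.

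Among enzymes that build the cores of glycolipids, gangliosides and globosides alike, 1 of 6 rose in LM2, and 1 rose and 1 fell in BrM2, both against Par. B4GALNT1, which extends simple gangliosides toward the acceptors of the ST6GALNAC enzymes, had 4.47, 3.15 and 2.08 CPM in Par, 21.3, 11.2 and 10.99 CPM in LM2 and 12.1, 13.7 and 11.5 CPM in BrM2. It rose by 2.17 ± 0.36 in LM2 (edgeR adjusted p 0.0065) and by 1.95 ± 0.36 in BrM2 (adjusted p 0.0077). UGCG, which makes the glucosylceramide from which gangliosides are built, fell by 0.92 in BrM2 (SE 0.20, adjusted p 0.018). With the block 2 of the 6 were higher and 1 lower in LM2, and 2 higher and 2 lower in BrM2. Both A4GALT, which diverts lactosylceramide to globosides, and B4GALT6, a lactosylceramide synthase, passed only with the block, A4GALT with lower values (-1.80 in LM2 and -1.09 in BrM2) and B4GALT6 with higher ones (0.67 and 1.43).

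Of the other 10 genes of the sialyltransferase family, 4 passed the filter, 0 of which passed the edgeR test in LM2 without the block and 2 in BrM2 against Par. ST8SIA1, which adds a further sialic acid to simple gangliosides, had 1.63, 3.29 and 3.38 CPM in Par, 1.19, 1.22 and 2.03 CPM in LM2 and 0.148, 0.662 and 0.527 CPM in BrM2. It fell in BrM2 against Par (-2.55 ± 0.50, edgeR adjusted p 0.010). ST3GAL6, an enzyme of N-glycans, had 5.25, 7.50 and 9.67 CPM in Par, 2.98, 4.77 and 7.05 CPM in LM2 and 13.7, 21.5 and 20.4 CPM in BrM2. It rose in BrM2 against Par (1.31 ± 0.36, adjusted p 0.045) and against LM2 (1.91 ± 0.37, adjusted p 0.014). With the block 2 of the 4 were called in LM2 against Par, both lower, 3 in BrM2 against Par and 3 in BrM2 against LM2. ST3GAL6 and ST8SIA1 were then lower in LM2 than in Par (-0.62 ± 0.18, edgeR adjusted p 0.020, and -0.88 ± 0.29, adjusted p 0.035), and ST8SIA1 was lower in BrM2 than in LM2 (-1.69 ± 0.37, adjusted p 0.0049). ST8SIA4, a polysialic acid synthase, was lower in BrM2 than in Par (-0.68 ± 0.25, adjusted p 0.046) and than in LM2 (-1.32 ± 0.24, adjusted p 0.0018).

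The 5 genes that supply CMP-sialic acid (GNE, NANS, NANP, CMAS and the Golgi transporter SLC35A1) all passed the filter, and none was called without the block in any comparison. With it GNE, the first enzyme of sialic acid synthesis, was higher in BrM2 than in Par (0.33 ± 0.10, edgeR adjusted p 0.026) and than in LM2 (0.48 ± 0.10, adjusted p 0.0048). Among sialidases and other genes of sialic acid turnover, 1 of 7 tested genes rose and 1 fell in LM2, and 1 rose and 2 fell in BrM2. No sialidase was among these. NPL, the lyase that breaks down free sialic acid, rose from 0.387 ± 0.124 CPM in Par to 1.88 ± 0.23 in LM2 (edgeR adjusted p 0.011) and 3.01 ± 1.27 in BrM2 (adjusted p 0.0021). SLC17A5, which exports sialic acid from the lysosome, fell by 0.92 in LM2 (adjusted p 0.012) and by 1.08 in BrM2 (adjusted p 0.0042) on the log2 scale. SIAE, a sialic acid esterase, fell by 1.16 in BrM2 (adjusted p 0.014). With the block 1 was higher and 4 were lower in LM2, and 1 was higher and 5 were lower in BrM2. The sialidase NEU1 and its protector CTSA were then also lower in both metastatic lines than in Par (NEU1 -0.68 and -0.66, CTSA -0.59 and -0.44).

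Of the genes for N-glycan branches and their galactose, 1 of 8 tested was called in each metastatic line against Par. This was MGAT5, which makes the branch that is often extended and sialylated in tumors. It had 60.7, 57.6 and 57.7 CPM in Par, 86.7, 93.6 and 98.1 CPM in LM2 and 103, 108 and 103 CPM in BrM2, and rose by 0.66 ± 0.15 (edgeR adjusted p 0.027) and 0.84 ± 0.15 (adjusted p 0.0064). With the block 1 was higher and 4 were lower in LM2, and 1 was higher and 1 lower in BrM2. The lower ones included MGAT4A, which makes another branch (-2.10 ± 0.33 in LM2, adjusted p 6.8e-04), and B4GALT1, which adds galactose to the branches (-0.55 ± 0.11 in LM2, adjusted p 0.0034, and -0.86 ± 0.11 in BrM2, adjusted p 1.4e-04). Among O-glycan core enzymes 1 of 3 tested passed, GCNT1, which makes the branched core and fell by 1.26 in BrM2 (SE 0.34, adjusted p 0.038). With the block 2 of the 3 were lower in each metastatic line, and GCNT1 was also lower in LM2 (-1.18 ± 0.15, edgeR adjusted p 1.9e-04). Of the 6 fucosyltransferases of sialyl Lewis antigens 1, FUT4, passed the filter, and it was at 6.56 ± 0.208 CPM in Par, 6.32 ± 0.433 in LM2 and 6.50 ± 0.724 in BrM2 and passed no test.

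**Figure D5:**
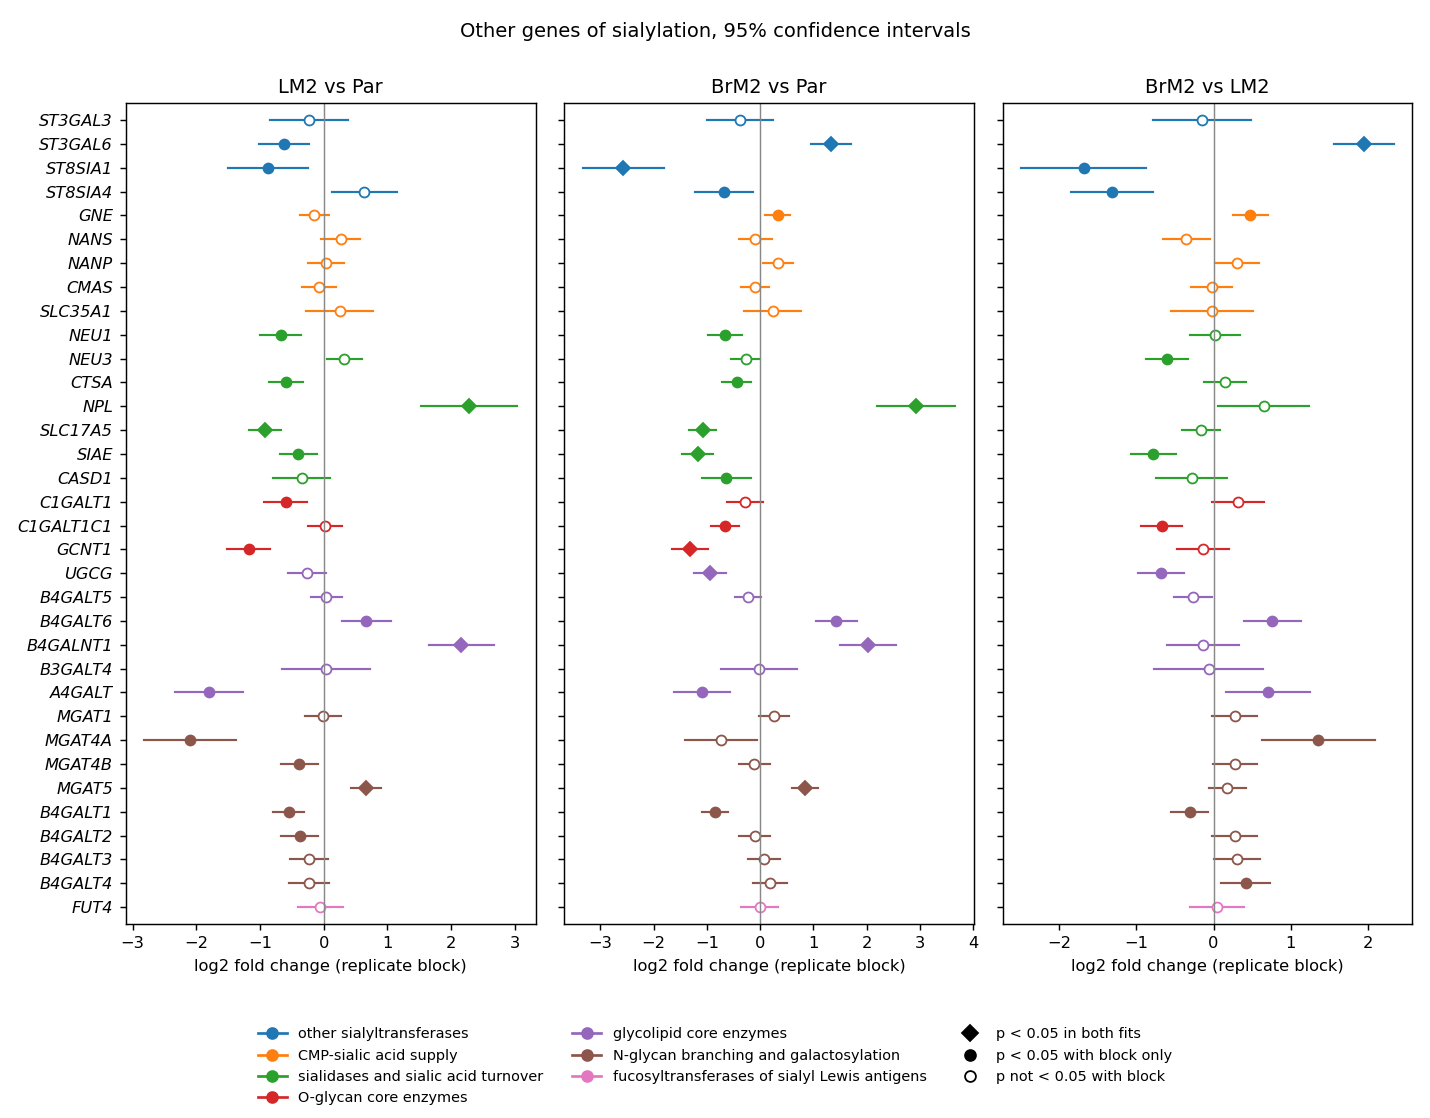
Log2 fold changes with the replicate block and their 95% intervals are plotted for the 34 tested genes of the 7 lists, colored by list, in the 3 comparisons. Diamonds passed in both fits, filled circles with the block alone, and open circles not with the block. B4GALNT1 and NPL lay to the right in both metastatic lines, and ST8SIA1 to the left in BrM2.

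The genes whose pattern over the 9 libraries was most like that of ST6GALNAC5 were ranked by Pearson's r of log2 CPM among 11874 genes with a mean of at least 50 counts. The first 5 were ENSG00000276256 (r 0.984), RELN (0.973), ENSG00000283162 (0.971), CSRP2 (0.970) and WNT5A (0.970). RELN, the extracellular glycoprotein reelin, had 0.764 ± 0.299 CPM in Par, 1.32 ± 0.359 in LM2 and 5.74 ± 0.790 in BrM2. WNT5A, a secreted WNT ligand, had 0.140 ± 0.138, 1.25 ± 0.421 and 6.57 ± 2.697 CPM. CSRP2, a LIM domain protein, had a smaller span, from 11.6 ± 1.34 CPM in Par over 14.5 ± 1.02 in LM2 to 21.7 ± 1.92 in BrM2. Among the members ST6GAL1 came closest, with r 0.880 at place 161. The 9 points share libraries and their replicate difference, so these values are descriptions.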

How the data were processed

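RNA-seq libraries were made by the authors with a stranded mRNA kit from 3 replicates each of Par, LM2 and BrM2, sequenced as paired ends, and, per the labels' processing notes, handled with CASAVA 1.8.2 and STAR 2.7.0 on hg38. The deposited counts are whole reads per gene without normalization. The strand counted is not given in the sources used here. A second deposited table holds the authors' DESeq2 comparisons with log2 fold changes and adjusted p-values per gene and was not used.

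Of 58887 rows, 3 repeated an identifier with identical values and were kept once. A filter after HTSFilter (largest normalized count over 47.1) kept 13055 genes, with at least 99.6% of the counts of each library and 7 of the 10 members. The remaining 3 members are described from the fit without a filter (34056 genes with any count), an alternative added after the data were seen. Lines were compared in edgeR 4.0.16 (R 4.3.3) with TMM scaling and its two-sided quasi-likelihood test in a model of all 9 libraries, with Benjamini-Hochberg adjustment over all genes in the fit and a threshold of 0.05. SE were calculated from the log2 difference and the test statistic of the same fit, and 95% intervals from these SE with a t quantile.

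Replicate numbers come from the sample titles. Deviations from the line means correlated at r 0.23 to 0.898 in all 9 pairs of the same number. In pairs of different numbers r was -0.876 to 0.801, negative in every pair with replicate 1 and positive in every pair of replicates 2 and 3. This sets replicate 1 apart but does not show that replicates 2 and 3 pair by number. Par replicate 2 had r 0.230 and 0.406 with BrM2 replicates 2 and 3, and 0.502 and 0.389 with LM2 replicates 2 and 3. The block takes equal numbers as pairs, which is an assumption. Alternatives were the replicate block, DESeq2 1.42.0, limma-voom (limma 3.58.1), other scaling and filters, the 2 compared lines alone, and each library or number left out. The statistics were tested on simulated data that held no replicate difference. That test thus does not bear on fits to data with such a difference. All members are named. Of the lists, genes called in either fit could be named, at most 6 per list by size of change, and the members and lists were chosen with earlier results of these data known. Exon lengths, overlaps and GC content came from GENCODE gene models lifted to GRCh37 and positions and promoters from RefSeq (GRCh38.p14, where 7 of 10 members had a promoter entry). The 95% intervals include the spread between libraries. The 3-count floors do not, and they cover counting error only for libraries with no count.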

Additional observations from a re-analysis of the deposited data

Results flagged for a closer look

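The change of ST6GALNAC5 from Par differed between the metastatic lines. It was larger in BrM2 than in LM2 by 1.80 on the log2 scale (SE 0.44, adjusted p 0.040 in edgeR, and 3.3e-04 with the replicate block), and BrM2 was higher in 3 of 3 pairs of the same number. Since both lines are set against the same Par libraries, this is the direct comparison of BrM2 with LM2. In edgeR without the block the call was lost in 8 of the 9 fits that leave out a library.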

How the results depend on the processing

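Over the members, the alternatives moved mainly which side of the threshold a difference fell on. Another scaling (relative log expression) and a fit of only the 2 lines compared left all 30 member differences with the same direction and call. The replicate block brought calls among the 7 members that passed the filter to 4 in LM2 against Par and 4 in BrM2 against Par. In BrM2 against LM2 it brought them to 3. Pathway genes called came to 17, 18 and 13 in these comparisons. Over all 10 members it added 9 calls, which are given beside each gene, and it changed no other member call. No filter gave 2, 4 and 2 members and, in BrM2 against LM2, 2 pathway genes, while no filter with the block (added after the data were seen) gave 5, 6 and 5 members and 17, 18 and 11 pathway genes. In that last fit alone ST6GALNAC4 passed in BrM2 against Par (adjusted p 0.046). The filterByExpr filter gave 4 members in BrM2 against Par and 2 in BrM2 against LM2, and DESeq2 gave 6 pathway genes in BrM2 against LM2. The cause of these differences was not tested, apart from the larger number of members tested without a filter.

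Counts of members in this paragraph are over the 7 that passed the filter. Leaving out 1 library or 1 replicate number without the block gave 0 to 4 members called in LM2 against Par and 0 to 4 in BrM2 against Par. In BrM2 against LM2 it gave 0 to 3. The same fits gave 0 to 16, 0 to 19 and 0 to 13 pathway genes. In LM2 against Par the 4 members were called without replicate 1, and 0 were called without replicate 2 or without replicate 3. Without replicate 2 none of the 7 was called by edgeR without the block in any comparison, and without replicate 3 only 1, in BrM2 against Par. In BrM2 against LM2 none of the 7 was called without Par replicate 2 or 3, LM2 replicate 2 or 3, or any BrM2 replicate. No pathway gene was called there without LM2 replicate 2 or BrM2 replicate 3. ST6GALNAC2, outside these counts, stayed called in BrM2 against Par and against LM2 in all 20 alternatives to its fit. Its adjusted p was at most 0.0022 and 0.010 over edgeR, DESeq2 and limma-voom. ST6GALNAC5 in BrM2 against Par had an adjusted p of 0.13 (without replicate 2) and 0.079 (without replicate 3). With the block and 1 number left out, 3, 3 and 3 members were called in LM2 against Par, 3, 4 and 2 in BrM2 against Par, and 3, 4 and 2 in BrM2 against LM2 (without replicates 1, 2 and 3). The same fits gave 13, 14 and 7, then 17, 19 and 13, then 13, 11 and 6 pathway genes.

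The differences that changed sign were not called in the fits as reported or where their sign changed. ST6GALNAC4 in BrM2 against Par became 0.13 without replicate 2 (0.11 with the block), and in BrM2 against LM2 0.43 without LM2 replicate 1, 0.30 without BrM2 replicate 2, 0.05 without BrM2 replicate 3 and 0.19 without replicate 2 (0.22 with the block). ST3GAL4 in LM2 against Par became 0.24 without Par replicate 1, 0.06 without LM2 replicate 2 and 0.09 without LM2 replicate 3, and in BrM2 against LM2 0.31 without LM2 replicate 1 and 0.07 without replicate 1 (0.074 with the block). Over all fits without a library or number these values ran from -1.002 to 0.13 and from -0.67 to 0.43 for ST6GALNAC4, and from -0.73 to 0.24 and from -0.52 to 0.31 for ST3GAL4. Depth limits ST6GALNAC2, ST6GALNAC3 and ST6GALNAC6, which had at most 41 counts in any library.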
